A study of Rattus norvegicus with 11 samples.

Results

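Haem synthesis, haem oxygenase and iron handling were followed in rat hippocampus through Cp, Tfrc, Hmox1, Hmox2, Alad and Fech, 6 of the 10412 genes that the array names singly, measured by 9 of its 15923 probe sets. A probe set belonged to the group when the platform annotation gave it a single gene symbol and that symbol was on a list of 9 genes. Tf, Fth1 and Ftl1, also on that list, were left out because the probe sets that carry their symbols, 3 in all, list other genes too. Those 3 shared probe sets are described at the end of the results and are assigned to no gene.

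The arrays held total RNA of hippocampus from rats on a ketogenic diet (5 samples) or a control diet (6 samples). A ketogenic diet is rich in fat and poor in carbohydrate, and the labels describe it as one that prevents epileptic seizures. The labels name no treatment other than the diet, and they give no strain, age, sex, seizure status or time on the diet. They also do not say whether samples of a diet are separate animals, so a p-value here measures only how far these samples spread, which may be technical.

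Iron enters most cells when transferrin, the plasma iron carrier, binds the transferrin receptor encoded by Tfrc. Inside the cell iron is stored in ferritin or built into haem, whose synthesis includes a step run by Alad in the cytosol and ends with Fech, which inserts iron into the porphyrin ring in mitochondria. Haem oxygenases, encoded by Hmox1 and Hmox2, break haem down and release its iron, and ceruloplasmin, encoded by Cp, oxidises iron as it leaves the cell. When iron is short, iron regulatory proteins stabilise Tfrc mRNA and hold back translation of ferritin mRNA.

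Values are log2 signals after quantile normalization, a fold change is ketogenic minus control on that scale, and a probe set was called when its adjusted p in limma was below 0.05. Array medians as deposited lay between 79.9 and 94.4 signal units. On the log2 scale they were 6.32 to 6.46 on ketogenic and 6.48 to 6.56 on control arrays, with no overlap (difference -0.14, exact two-sided permutation test, p = 0.00216, adjusted 0.00432 over 4 measures). Ketogenic replicate 3, whose title is the only one with a letter b added at its end, had a mean correlation of 0.952 with the other ketogenic arrays and 0.961 with the control arrays. The other 10 arrays correlated more with their own diet than with the other one. The log2 ratio of 3 prime to 5 prime control probe sets, also taken from the values as deposited, rises as RNA degrades. It differed between diets. For Gapdh it was 0.13 to 0.34 on ketogenic and -0.07 to 0.15 on control arrays (difference 0.20, exact two-sided permutation test, p = 0.00649, adjusted 0.00649 over 4 measures). For actin it was 0.75 to 0.99 on ketogenic and 0.49 to 0.75 on control arrays (difference 0.19, exact p = 0.00216, the smallest these samples allow, adjusted 0.00432). On the log2 scale as deposited, spike-in probe sets averaged 8.51 to 8.91 on ketogenic and 8.24 to 8.54 on control arrays (exact p = 0.00649, adjusted 0.00649). When both ratios entered the fit as covariates, 0 of the 7 tested probe sets of the group and 6 of all probe sets were called. The ratios and the spike-in level differed between diets, so a fit with them as covariates cannot separate the diet from them. A call lost in such a fit is therefore assigned to no cause. Hippocampal markers were present, as the label has it. Of 10 such genes 8 were tested and 0 were called, and their mean level was 8.78 to 8.94 on ketogenic and 8.77 to 9.0 on control arrays. Of 12 neuronal markers 11 were tested and 0 called, with a mean level of 10.05 to 10.17 on ketogenic and 10.06 to 10.17 on control arrays.

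Of the 9 probe sets, 7 passed the filter on low signal, at least 1 for each of the 6 genes. A probe set each of Tfrc and Fech was higher on the ketogenic diet and a probe set of Cp was lower, while those of Hmox1, Hmox2 and Alad and the other tested one of Tfrc were not called. The 3 calls among 7 stand beside 16.5% of all 11899 tested probe sets, 8.62% higher and 7.86% lower. Of the 3, that of Cp passed the filter only through its control values. With no filter, 2 of the 9 probe sets were called. The median log2 fold change was 0.04 over the 7 and 0.0 over all tested probe sets. For 2 of the 7, those of Tfrc and Fech, ketogenic and control values did not overlap, which held for 6.99% of all tested probe sets.

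**Figure D1:**
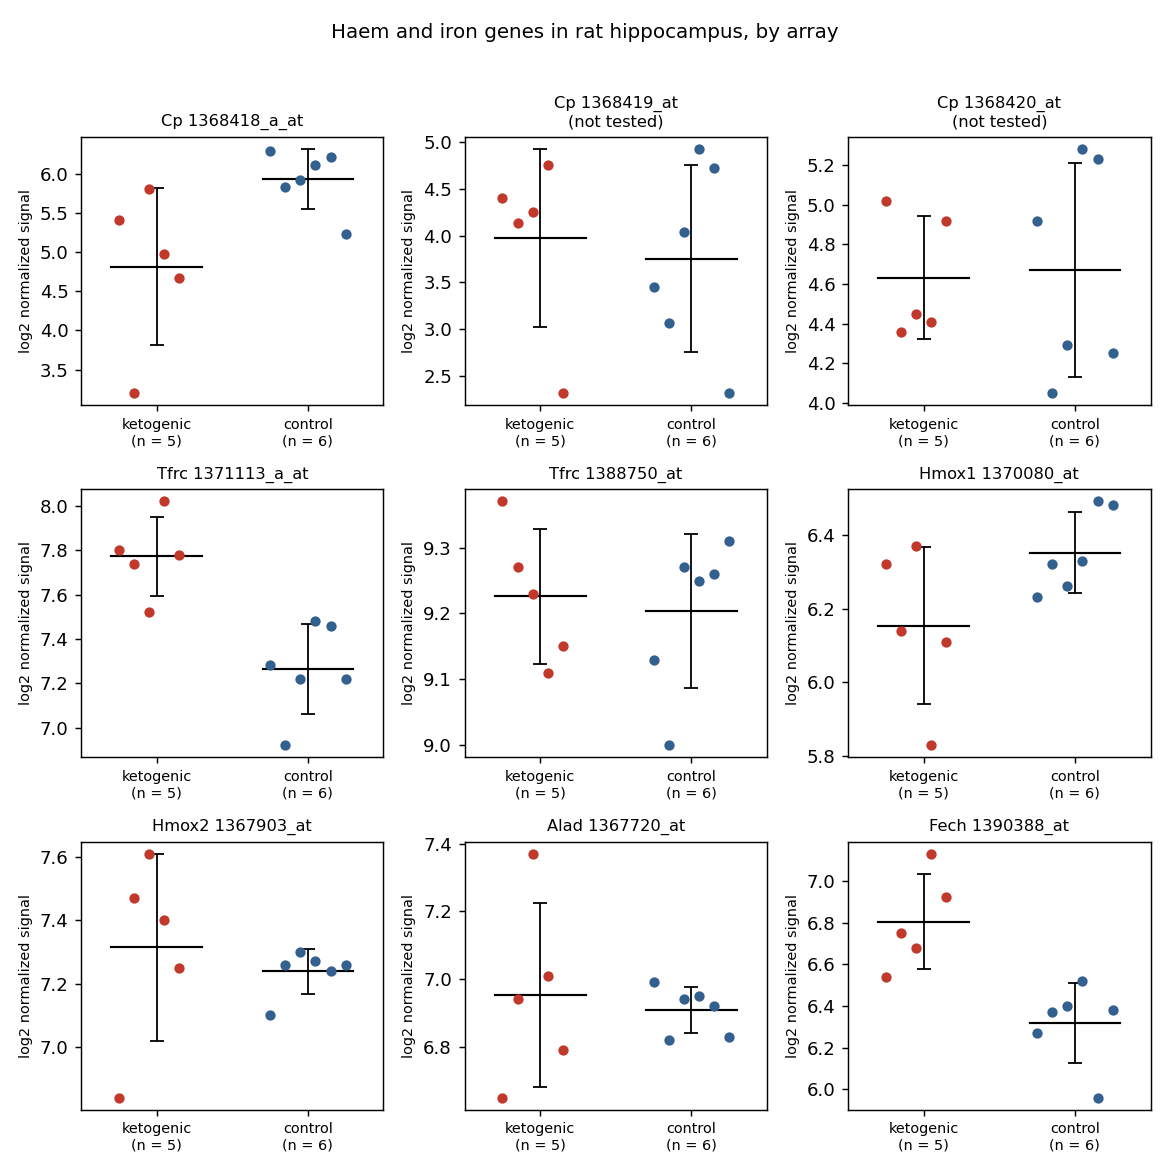
Log2 normalized signal of each of the 9 probe sets on every array, with ketogenic samples (red, n = 5) left of control samples (blue, n = 6). Bars give the mean and SD, and the vertical axis differs between panels and does not start at 0. Tfrc 1371113_a_at and Fech are the 2 panels in which the diets do not overlap.

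Iron uptake came first in the order of the pathway. The transferrin receptor gene Tfrc was measured by 2 tested probe sets that did not move together. Probe set 1371113_a_at, whose suffix marks probes shared by alternative transcripts of 1 gene, had 7.80, 7.74, 7.52, 8.02 and 7.78 on ketogenic replicates 1 to 5, against 6.92 to 7.48 with a median of 7.25 on control arrays. Every ketogenic array lay above every control array, and the lowest of the 5 was ketogenic replicate 3. The signal was 1.42-fold higher on the ketogenic diet (log2 fold change 0.51, SE 0.11, 95% interval 0.28 to 0.74, adjusted p = 0.00942, limma). As deposited, the signals were 182 to 262 on ketogenic arrays and 126 to 182 on control arrays.

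The other Tfrc probe set, 1388750_at, had 9.37, 9.27, 9.23, 9.11 and 9.15 on ketogenic replicates 1 to 5, against 9.0 to 9.31 with a median of 9.26 on control arrays. The diets overlapped almost fully. Its log2 fold change was 0.02 (SE 0.068, 95% interval -0.13 to 0.17, adjusted p = 0.862, limma). The change of the first probe set exceeded that of the second within arrays. The difference between them, 1371113_a_at minus 1388750_at, was -1.45 ± 0.24 (SD, n = 5) on ketogenic arrays and -1.94 ± 0.15 (SD, n = 6) on control arrays. The diets differed in it by 0.49 and did not overlap (exact two-sided permutation test, p = 0.00216, adjusted p = 0.00864 over 4 pairs of probe sets, the other 3 being of Cp). On the values as deposited that difference was 0.34 with adjusted p = 0.0520 by the same exact test. The mean of both probe sets was called, with a difference of 0.26 ± 0.08 (log2, SE) and an adjusted p of 0.0306 in limma.

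**Figure D2:**
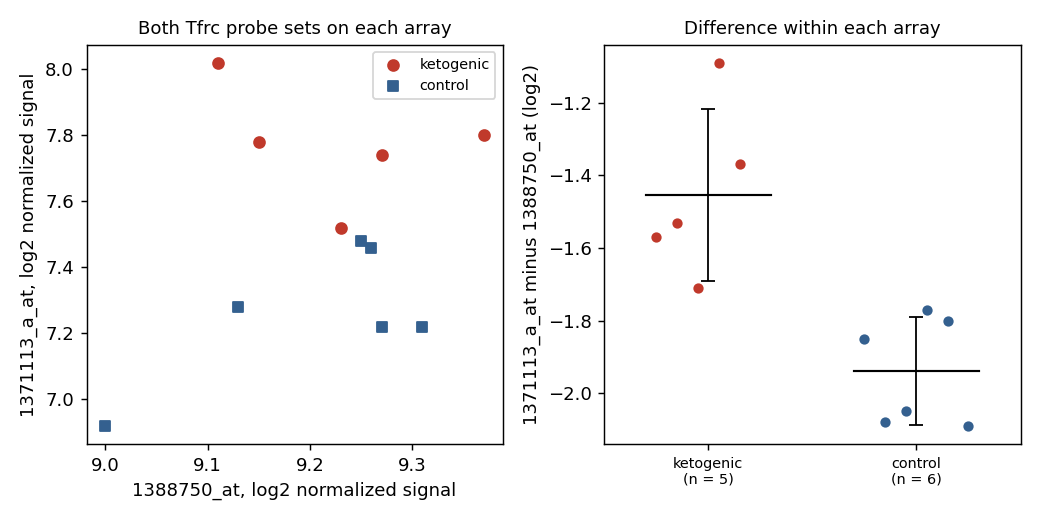
Both Tfrc probe sets on each array as log2 normalized signal (left), and their difference within each array with mean and SD (right). Ketogenic arrays (n = 5) lie between -1.71 and -1.09 and control arrays (n = 6) between -2.09 and -1.77, so the diets do not overlap in the difference.

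The Tfrc call held without each array in turn, with adjusted p from 0.00245 to 0.0325, and was 0.57 without ketogenic replicate 3. Adding the 3 prime to 5 prime ratios ended it (0.43, SE 0.2, adjusted p = 0.785), as did adding the spike-in level (0.53, SE 0.17, adjusted p = 0.0617). In brain the endothelium of vessels carries transferrin receptor, so vascular markers are given beside this result. Of 14 vascular markers 9 were tested, 0 were higher and 1 was lower, against 8.03% lower of all 8397 genes. The lower one was Slco1a4 at -0.47 (adjusted p = 0.0136), whose other tested probe set was at -0.14. The summed signal of the vascular markers was 1290 to 1586 on ketogenic and 1439 to 1643 on control arrays. Next by p were Vwf at -0.53 (adjusted p = 0.0830) and Slco1c1 at 0.20 (adjusted p = 0.113). Their part in the Tfrc result was not tested.

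The Tfrc promoter is shown because this gene and Fech carried the higher signals. RefSeq windows of the assembly GRCr8 were found for 5 of the 6 genes, and the 250 bases before the annotated start were searched on both strands for ACGTG, the core of hypoxia response elements, for GGGCGG, the GC box bound by Sp1 factors, and for TGACGTAA, which resembles a cyclic AMP response element. The last motif was added after the sequences had been read. Of 33469 such windows in the rat genome, 16.6% held ACGTG, 30.5% held GGGCGG and 0.75% held TGACGTAA. The minus-strand window chr11:81690319-81690568 follows 5′ to 3′ with the matches in capitals.
Tfrc: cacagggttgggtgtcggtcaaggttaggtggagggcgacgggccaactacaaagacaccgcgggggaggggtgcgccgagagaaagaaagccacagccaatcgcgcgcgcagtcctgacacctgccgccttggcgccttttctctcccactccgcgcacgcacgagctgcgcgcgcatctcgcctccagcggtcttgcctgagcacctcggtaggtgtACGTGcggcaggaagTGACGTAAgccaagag
ACGTG began at position -31 and TGACGTAA at position -16, and there was no match to GGGCGG. The matches do not overlap, and a match is no evidence of binding.

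Within haem synthesis, the last enzyme was higher and an early one was not called. Fech, ferrochelatase, had 6.54, 6.75, 6.68, 7.13 and 6.92 on ketogenic replicates 1 to 5, against 5.96 to 6.52 with a median of 6.38 on control arrays. All 5 ketogenic arrays lay above all 6 control arrays, with ketogenic replicate 1 closest to them. The signal was 1.40-fold higher (log2 fold change 0.49, SE 0.12, 95% interval 0.22 to 0.75, adjusted p = 0.0197, limma). Deposited signals were 90.1 to 134 on ketogenic arrays and 67.7 to 95.8 on control arrays, so that on that scale the diets overlapped. The call was lost without ketogenic replicate 4 (0.40, adjusted p = 0.0597). It was also lost after adding the 3 prime to 5 prime ratios (0.48, SE 0.24, adjusted p = 0.801) and after adding the spike-in level (0.41, SE 0.2, adjusted p = 0.176). Without ketogenic replicate 3 the log2 fold change was 0.52.

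Alad, which joins 2 molecules of aminolevulinate early in haem synthesis, had 6.65, 6.94, 7.37, 7.01 and 6.79 on ketogenic replicates 1 to 5, against 6.82 to 6.99 with a median of 6.93 on control arrays. Ketogenic arrays lay on both sides of the control range, 2 above it and 2 below it, and their SD was 0.273 against 0.0677 on control arrays. The log2 fold change was 0.04 (95% interval -0.19 to 0.28, adjusted p = 0.817, limma). Its sign turned on the values as deposited (-0.05), after centring on the 75th percentile (-0.02), with array weights (-0.01), with the spike-in covariate (-0.25) and without ketogenic replicate 3 (-0.06).

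The Fech window chr18:60248526-60248775, on the minus strand, is shown beside that of Tfrc.
Fech: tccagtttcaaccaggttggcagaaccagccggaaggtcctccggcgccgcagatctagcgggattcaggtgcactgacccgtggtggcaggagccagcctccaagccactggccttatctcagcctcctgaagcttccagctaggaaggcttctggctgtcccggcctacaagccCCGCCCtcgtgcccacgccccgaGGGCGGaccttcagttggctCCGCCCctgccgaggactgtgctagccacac
It held GGGCGG, or CCGCCC on the printed strand, at positions -74, -51 and -31 and held neither of the other motifs.

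Red cell precursors make most of the body's haem, and most of the tested red cell markers were lower on the ketogenic diet. Of 13 markers 5 were tested, of which 4 were lower and 1 was higher, against 8.03% lower and 8.85% higher of all 8397 genes. Their summed signal was 491 to 590 on ketogenic arrays and 1318 to 1789 on control arrays. The lower ones include Alas2 at -1.08 (adjusted p = 0.0298, limma), which is also counted in the wider haem and iron list below. Its ketogenic mean of 4.94 lay below the lowest mean tested, so it was tested only through its control values. Hbb, the haemoglobin beta chain, was at -3.16 (adjusted p = 9.63e-10, limma), and Hba-a3, an alpha globin, at -1.11 (adjusted p = 0.00041). Slc4a1, the red cell anion exchanger, was at -0.64 (adjusted p = 0.00468), and its other tested probe set was at -0.10. The higher one was Bpgm, an enzyme of red cell glycolysis, at 0.34 (adjusted p = 0.0358). Fech and Bpgm were both higher on the ketogenic diet while the other 4 tested markers were lower, and the part of blood in the values of Fech and Alad was not tested. In bulk tissue fewer cells of a type and less RNA per cell cannot be told apart.

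Haem breakdown showed no call. Hmox1, the inducible haem oxygenase, had 6.32, 6.14, 6.37, 5.83 and 6.11 on ketogenic replicates 1 to 5, against 6.23 to 6.49 with a median of 6.32 on control arrays. Of the ketogenic arrays 3 lay below every control array and the other two lay within the control range. The log2 fold change was -0.20 (SE 0.11, 95% interval -0.43 to 0.04, adjusted p = 0.236, limma). Leaving out 1 array gave -0.25 to -0.11, the last without ketogenic replicate 4 (adjusted p = 0.508). On the values as deposited the difference was -0.37 with adjusted p = 0.0503, from signals of 48.6 to 82.2 on ketogenic and 79.0 to 95.2 on control arrays.

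Hmox2, the constitutive haem oxygenase and the main form in neurons, had 6.84, 7.47, 7.61, 7.40 and 7.25 on ketogenic replicates 1 to 5, against 7.10 to 7.30 with a median of 7.26 on control arrays. Ketogenic replicate 1 lay below all control arrays and 3 ketogenic arrays lay above them. The log2 fold change was 0.08 (SE 0.11, 95% interval -0.17 to 0.32, adjusted p = 0.675, limma). It was 0.20 without ketogenic replicate 1 (adjusted p = 0.139), 0.0 without ketogenic replicate 3, 0.35 with the 3 prime to 5 prime ratios (adjusted p = 0.856) and -0.13 with the spike-in level (adjusted p = 0.631). The spread was wider on the ketogenic diet, with an SD of 0.296 against 0.0713 on the control diet, and this difference in spread was not tested.

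Microglia and macrophages recycle haem and can express Hmox1. Of 14 of their markers 8 were tested, 0 were higher and 2 were lower, against 8.03% lower of all 8397 genes. Those 2 were Aif1 at -0.57 (adjusted p = 0.0187) and Csf1r at -0.30 (adjusted p = 0.0295). The next by p, C1qc and C1qb, had positive differences of 0.33 (adjusted p = 0.0756) and 0.31 (adjusted p = 0.0880), and the other tested probe set of Aif1 was at 0.01. Their summed signal was 838 to 1019 on ketogenic and 951 to 1122 on control arrays, and their part in the Hmox1 values was not tested.

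Iron export was represented by Cp, which brain makes in astrocytes and choroid plexus. It has 3 probe sets, of which 1 passed the filter. Probe set 1368418_a_at had 5.41, 3.20, 5.81, 4.98 and 4.67 on ketogenic replicates 1 to 5, against 5.23 to 6.29 with a median of 6.02 on control arrays. The diets overlapped, since 3 ketogenic arrays lay below all control arrays while ketogenic replicates 1 and 3 lay within the control range. The signal was 2.17-fold lower (log2 fold change -1.12, SE 0.36, 95% interval -1.88 to -0.35, adjusted p = 0.0472, limma). The SD was 0.999 on ketogenic and 0.383 on control arrays. The ketogenic mean of 4.82 lay below 5.16, the lowest mean at which a probe set was tested, so that the probe set passed the filter only through its control values.

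The Cp call was close to the threshold. Without a filter it was lost (adjusted p = 0.108), as it was without a variance trend (adjusted p = 0.0661) and with a robust trend (adjusted p = 0.0541). It held without control replicate 6 (-1.25) and without ketogenic replicate 3 (-1.36). It was lost without control replicate 1, 2, 3, 4 or 5 and without ketogenic replicate 1, 2, 4 or 5, with adjusted p from 0.0504 to 0.088. Without ketogenic replicate 2 the difference was -0.71, and with the 3 prime to 5 prime covariates it was 0.14 (SE 0.58, adjusted p = 0.986). With the spike-in level as covariate it was -1.85 and was called (adjusted p = 0.0396).

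The other Cp probe sets were dim, and their intervals lay on both sides of 0. Probe set 1368420_at had 4.36 to 5.02 on ketogenic and 4.05 to 5.28 on control arrays (-0.04 with no filter, 95% interval -0.62 to 0.54, adjusted p = 0.951). Probe set 1368419_at had 2.32 to 4.75 on ketogenic and 2.32 to 4.92 on control arrays, with 2 arrays at the floor (0.22 with no filter, 95% interval -1.0 to 1.44, adjusted p = 0.838). Both had failed the filter on low signal, so differences between Cp probe sets are not given.

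Markers of cell types that a hippocampal sample can hold were also lower in part. Over all 8397 genes, 8.03% were called lower and 8.85% higher. Of 16 choroid plexus markers 11 were tested, 0 were higher and 3 were lower, with a median of -0.30. Those called were Aqp1, a water channel, at -0.73 (adjusted p = 0.00022), Cldn2, a junction protein, at -0.68 (adjusted p = 0.0288), and Folr1, a folate receptor, at -0.46 (adjusted p = 0.0313). Ttr was at -0.29 and was not called (adjusted p = 0.781), with an SD of 1.59 on control arrays. Of the 11, 2 had positive differences that were not called, Calml4 at 0.23 and Sostdc1 at 0.11. Cldn2 had a ketogenic mean of 4.98, below the lowest mean tested, and so passed the filter only through its control values. The summed signal of the 11 choroid plexus markers was 922 to 1536 on ketogenic and 1172 to 2961 on control arrays. Of 12 markers of meninges 10 were tested, 0 were higher and 2 were lower, Col1a1 at -0.65 and Igfbp2 at -1.21, with a median of -0.52 and a summed signal of 1184 to 2883 on ketogenic and 1646 to 4503 on control arrays. Col1a2, next by p, was at -0.55 (adjusted p = 0.0710). Of 12 astrocyte markers 11 were tested, 0 were higher and 2 were lower, Gfap at -0.39 and Aqp4 at -0.33, with a median of -0.06 and a summed signal of 11087 to 12671 on ketogenic and 11863 to 12569 on control arrays. Fgfr3, next by p, was at 0.25 (adjusted p = 0.0725), and Slc1a3 at 0.23 and Gja1 at 0.12 also had positive differences that were not called. The other tested probe sets were at -0.29 and -0.25 for Slc1a3, at -0.35 and 0.00 for Gja1, and at -0.27 and -0.14 for Aqp4. The part of these cell types in the Cp result was not tested.

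The plus-strand Cp window chr2:104368420-104368669 is shown as that of the member with a lower signal.
Cp: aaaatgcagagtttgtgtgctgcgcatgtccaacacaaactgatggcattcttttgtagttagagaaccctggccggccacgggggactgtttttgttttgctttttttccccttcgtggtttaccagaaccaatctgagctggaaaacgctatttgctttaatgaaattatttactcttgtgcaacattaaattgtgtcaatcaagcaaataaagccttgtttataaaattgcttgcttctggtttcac
It held none of the 3 motifs, and 39.6% of its bases were G or C, against 64.8% in the Tfrc window and 65.2% in the Fech window. Alad and Hmox2, which were not called, had such windows too. That of Alad held ACGTG 2 times and GGGCGG 4 times, with 65.6% G or C. The 2 matches to ACGTG were 1 CACGTG read on both strands, and the GGGCGG matches at -34 and -30 overlap. The Hmox2 window chr10:11337613-11337862 held each of these motifs 1 time, with 60.0% G or C. A further Hmox2 window, chr10:11318801-11319050, held none of the 3 motifs, with 45.6% G or C.

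**Figure D3:**
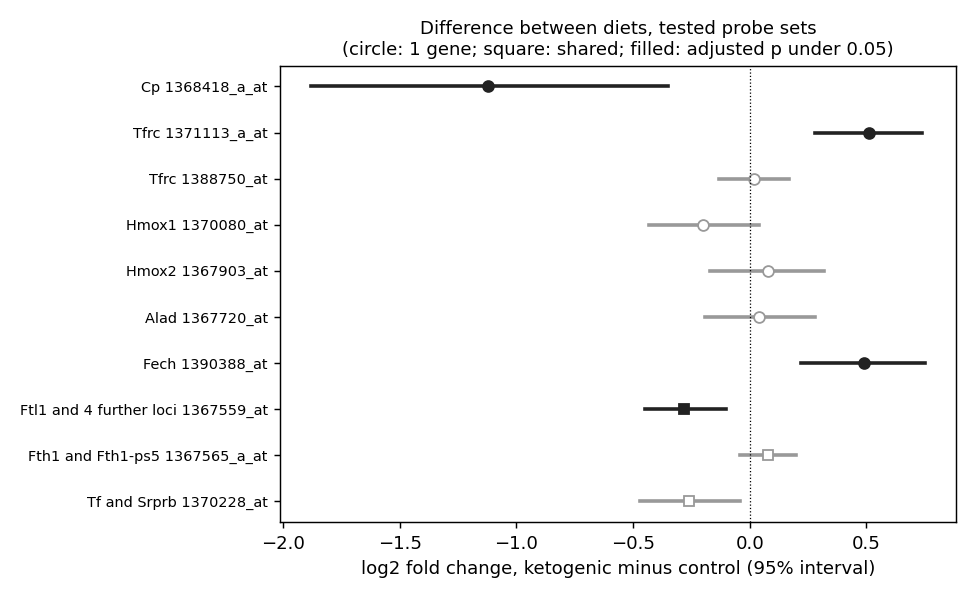
Log2 fold change, ketogenic minus control, with its 95% interval for the 7 tested probe sets of single genes (circles) and the 3 shared ones (squares). Filled symbols had an adjusted p below 0.05. Tfrc 1371113_a_at at 0.51 and Fech at 0.49 lie right of 0, and Cp 1368418_a_at at -1.12 lies left of it with the widest interval.

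The wider pathway was read from 55 further genes of haem and iron metabolism, of which 32 were tested, 6 had only probe sets below the filter and 17 had no probe set of a single symbol. Of the 32, 3 were higher and 3 were lower, against 8.85% and 8.03% of all 8397 genes, so that both shares were close to the background. Their median log2 fold change was 0.0.

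Among genes of haem synthesis and haem transport, Alas2, the first enzyme in red cell precursors, was at -1.08 (SE 0.31, adjusted p = 0.0298, limma), with 4.94 ± 0.88 (SD, n = 5) on ketogenic and 6.02 ± 0.21 (SD, n = 6) on control arrays, so that it too was tested only through its control values. Alas1, the same step in all other cells, was at -0.28 (adjusted p = 0.0518) and was not called. Urod, a later enzyme, was at 0.04 (adjusted p = 0.762). Abcb6, a porphyrin transporter, was at 0.53 (SE 0.15, adjusted p = 0.0273), with 6.79 ± 0.24 (SD, n = 5) on ketogenic and 6.26 ± 0.29 (SD, n = 6) on control arrays. Pgrmc1, a membrane protein that binds haem, was at 0.28 (adjusted p = 0.0203). Blvra, which turns the biliverdin made by haem oxygenases into bilirubin, was at -0.28 (adjusted p = 0.0893).

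Among genes of iron transport, Mcoln1, a lysosomal channel that passes iron and other cations, was at 0.37 (SE 0.09, adjusted p = 0.0195). Slc39a14, a zinc and iron importer, was at -0.28 (adjusted p = 0.0486). Hamp, the iron hormone hepcidin, made mostly in liver, was at -0.45 (SE 0.13, adjusted p = 0.0284), with 6.23 ± 0.27 (SD, n = 5) on ketogenic and 6.68 ± 0.16 (SD, n = 6) on control arrays. Slc40a1, the iron exporter that hepcidin closes, was at 0.01 (adjusted p = 0.965), and Slc11a2, the importer DMT1, was at 0.04 (adjusted p = 0.795).

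The regulators were not called. Aco1 and Ireb2, which encode the iron regulatory proteins, were at -0.05 (adjusted p = 0.696) and 0.29 (adjusted p = 0.295). Nfe2l2, a transcription factor that induces Hmox1, was at 0.31 (adjusted p = 0.0680), and Epas1, a hypoxia-inducible factor, was at 0.11 (adjusted p = 0.340). Nfs1, which supplies sulfur for iron-sulfur clusters, was at 0.45 (adjusted p = 0.0507), just outside the threshold. Of 23 other settings, the call was lost in 3 for Mcoln1, 4 for Pgrmc1, 8 for Hamp, 9 for Abcb6 and 14 for Slc39a14, and in 7 of 22 for Alas2. With the 3 prime to 5 prime covariates these 6 genes lay between -0.54 for Alas2 and 0.33 for Abcb6, with adjusted p of 0.785 or more.

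**Figure D4:**
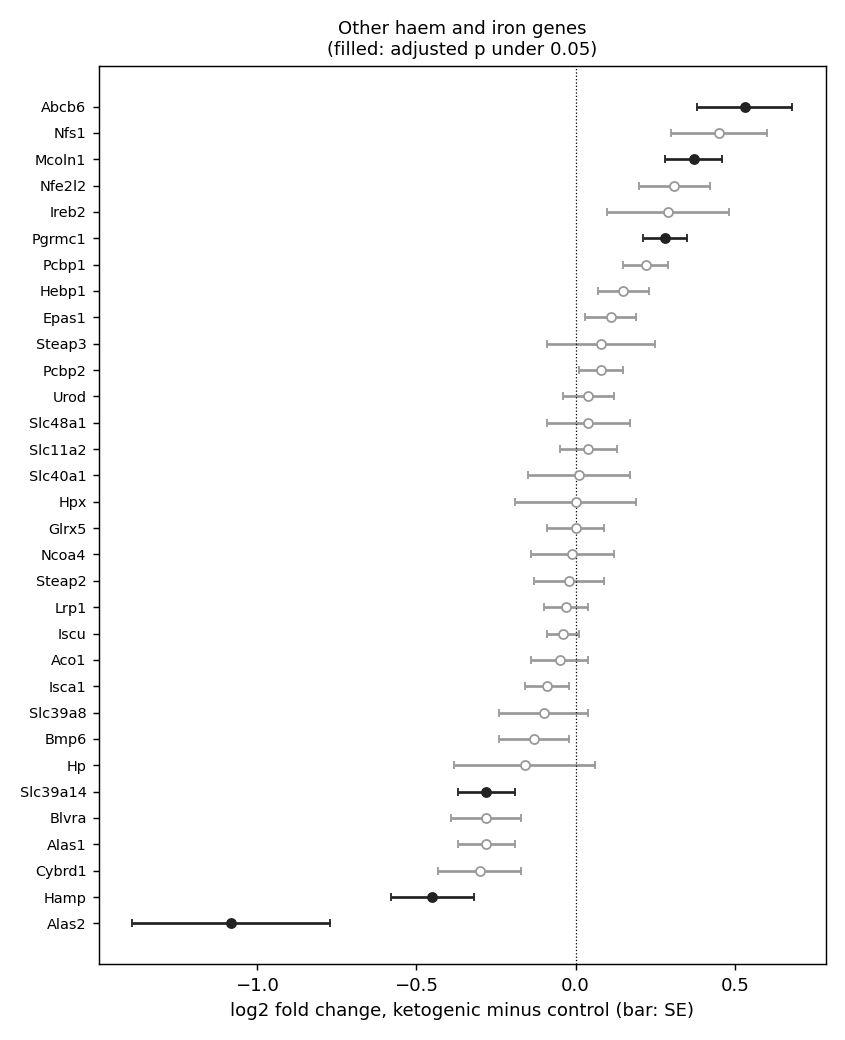
Log2 fold change, ketogenic minus control, with its SE for the 32 tested genes of the wider haem and iron list, in order of the change. Filled points had an adjusted p below 0.05, and they are Abcb6, Mcoln1 and Pgrmc1 above 0 and Alas2, Hamp and Slc39a14 below it.

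The shared probe sets stand for more than 1 gene each. The one listing Ftl1, the ferritin light chain, with 4 related loci had 8.75, 8.80, 9.16, 8.87 and 9.12 on ketogenic replicates 1 to 5, against 9.04 to 9.29 on control arrays. It was called lower (log2 fold change -0.28, SE 0.081, adjusted p = 0.0333, limma), and 3 ketogenic arrays lay below all control arrays. The one listing Fth1, the ferritin heavy chain, and its pseudogene Fth1-ps5 had 11.60 to 11.84 on ketogenic and 11.46 to 11.72 on control arrays (0.08, adjusted p = 0.347). The one listing Tf, which brain makes in oligodendrocytes and choroid plexus, and Srprb had 9.43, 9.50, 9.97, 9.36 and 9.27 on ketogenic replicates 1 to 5, against 9.65 to 9.90 on control arrays. Of these ketogenic arrays 4 lay below all control arrays and ketogenic replicate 3 lay above them, and the difference of -0.26 was not called (adjusted p = 0.0895). Of 14 oligodendrocyte markers 11 were tested, 0 were higher and 2 were lower, against 8.03% lower of all 8397 genes. Those 2 were Mag at -0.52 and Ugt8 at -0.42. Cnp, next by p, was at -0.26 (adjusted p = 0.0532). The median was -0.06, and 4 of the 11 had positive differences, the largest that of Aspa at 0.26, which was not called. The summed signal of the markers was 9616 to 12093 on ketogenic and 10453 to 12670 on control arrays. Their part in the signal of that probe set was not tested.

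**Figure D5:**
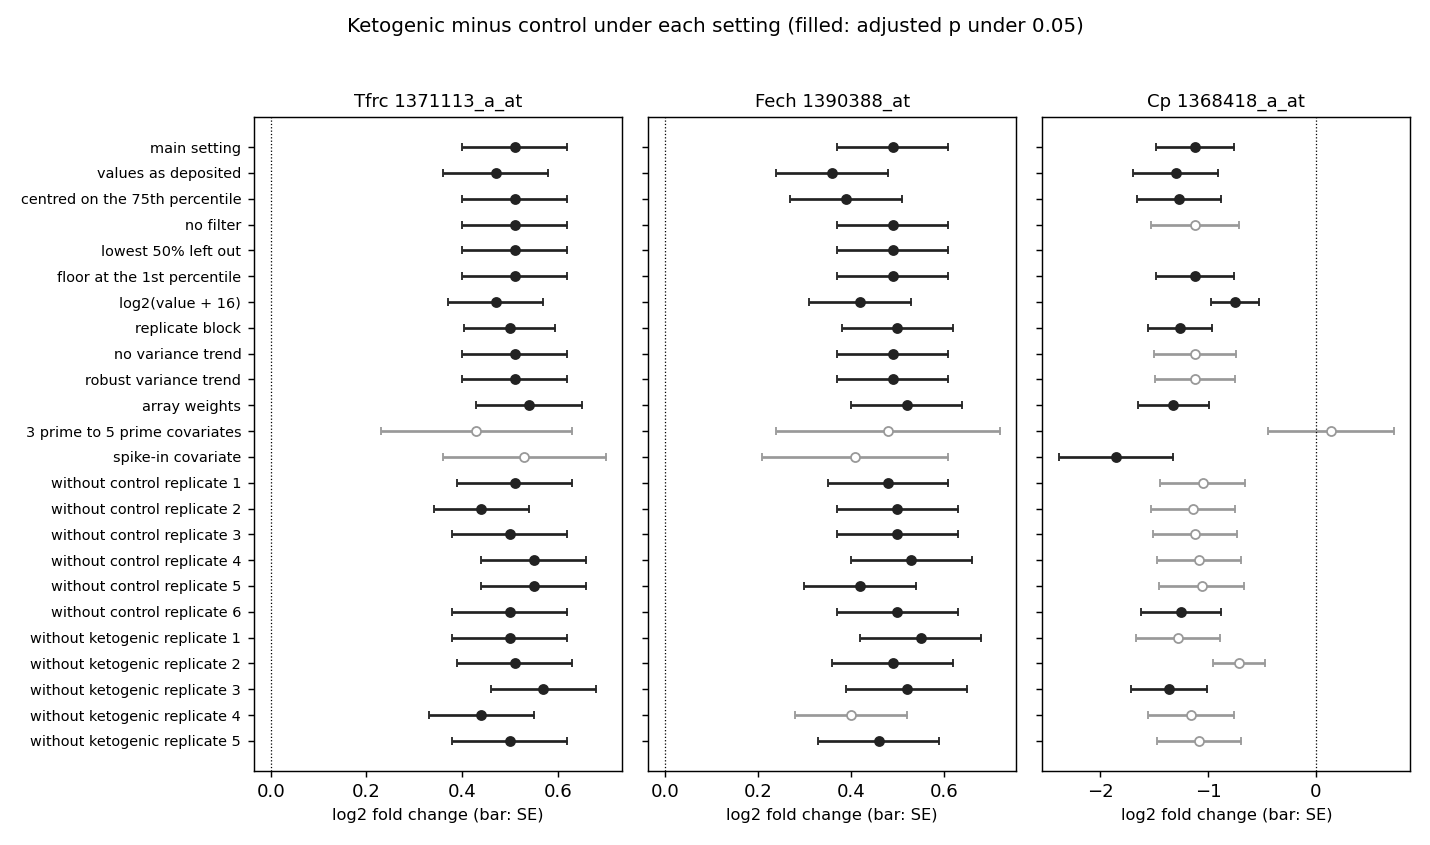
Log2 fold change, ketogenic minus control, with its SE for the called probe sets of Tfrc, Fech and Cp under each processing setting. Filled points had an adjusted p below 0.05. Tfrc and Fech stay between 0.36 and 0.57, and Cp runs from -1.85 with the spike-in covariate to 0.14 with the 3 prime to 5 prime covariates.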

How the data were processed

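The authors deposited 1 linear intensity for each probe set and array. The sources used here do not say how it was made from the scan. After trimming 2% of values at each end, the deposited intensities of each array averaged 150.023 to 150.028. Array medians spanned 0.239 on the log2 scale. Log2 intensities were quantile-normalized between arrays and raised to a floor at the 5th percentile of all values, a signal of 4.987. Left out were 57 control probe sets and then those whose mean was among the lowest 25%, which left 11899 to test. Ketogenic and control diet were compared with limma 3.58.1 in R 4.3.3 (lmFit, then eBayes with trend, two-sided). The p-values were adjusted over the 11899 by Benjamini-Hochberg. The fit was tested on simulated data with 100 planted changes of 0.5 and 100 of 1 on the log2 scale. It called 59 of the former and 94 of the latter, and 13 of its 166 calls were on unchanged probe sets. The simulated noise was normal and independent between probe sets. It held none of the differences between whole arrays given above, so these counts need not carry over to the real arrays.

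Symbols came from the platform annotation, in which 12789 of 13101 probe sets had 1 symbol and 312 several, while 2771 probe sets were unnamed here. They were updated through gene identifiers, and 12754 were found in a RefSeq table of GRCr8. In gene lists, the brightest tested probe set stood for its gene. Exact permutation tests used SciPy 1.17.1.

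The members, lists and tests were chosen with earlier results of these data known. Named are all members, the called genes of the haem and iron list, up to 3 markers of each cell type list by smallest p, and the 3 genes most alike to each member. Bpgm, C1qb, Slc1a3, Gja1 and further list genes were named for their role or direction after their values had been seen. Alternatives were other scalings, filters, floors, variance models, covariates and thresholds, array weights, the replicate number as a block and leaving out each array. The number of arrays limits the precision. Batches are not labelled, and diet cannot be told apart from them.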

Additional observations from a re-analysis of the deposited data

Results flagged for a closer look

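Of 18 sets of values, 9 probe sets in 2 diets, 2 held an array far from the others of its diet, where chance gives about 1 in 20 sets, or 0.9. Cp 1368419_at was at 2.32, the floor, on ketogenic replicate 5, against 4.14 on the nearest other ketogenic array. Hmox2 was at 7.10 on control replicate 1, against 7.24 on the nearest other control array.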

How the results depend on the processing

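Among the 7 tested probe sets, 3 were called in the main setting and 1 to 3 in the fits that each left out 1 array. The count was 1 without ketogenic replicate 4, 1 with the spike-in covariate and 0 with the 3 prime to 5 prime covariates. With 1 value a gene, 2 of 6 genes were called by the brightest probe set and 3 by the mean of all tested ones. Signs turned for Cp 1368418_a_at with the 3 prime to 5 prime covariates (0.14), for Tfrc 1388750_at with these (-0.12) and with the spike-in covariate (-0.04), for Hmox2 with the spike-in covariate (-0.13), and for Alad on deposited values (-0.05), at the 75th percentile (-0.02), with array weights (-0.01) and with the spike-in covariate (-0.25). Without 1 array, Tfrc 1388750_at ran from -0.02 to 0.05 and Alad from -0.06 to 0.12. The cause was not tested.

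Over all tested probe sets, 1961 were called. The count was 3137 with array weights, 6 with the 3 prime to 5 prime covariates and 3071 at a threshold of 0.1. Fits without 1 array gave 798 to 3165 calls. The count fell by a factor over 1.5 without control replicate 2 (1170), 3 (1251) or 5 (1258). It did so too without ketogenic replicate 1 (1199), 2 (842), 4 (798) or 5 (1244). Without ketogenic replicate 3 (3165) it rose by a factor over 1.5. Calls were 52.3% higher in the main setting and 38.3% on the values as deposited.

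The replicate block gave 1815 calls over all probe sets and 3 among the 7, and changed no call among the 7. Residuals of same-numbered arrays correlated by 0.00888 to 0.0771, and 2 of 5 matched their own number best. With 5 pairs this cannot tell whether the numbers mark a pairing.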

Other observations

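Genes whose signal varied most like that of Cp, Tfrc, Fech, Hmox1, Hmox2 or Alad within diets were listed by Pearson r over the 11 arrays after each diet's mean had been subtracted. The points share arrays and diet means, and 8391 genes were searched, so high values arise by searching alone. For Cp 1368418_a_at they were Yes1 (r = 0.94), Ackr3 (0.93) and Cenpm (0.93), and 6 genes exceeded 0.9. For Tfrc, by its brightest probe set 1388750_at, they were Slc39a8 (r = 0.95), a zinc and iron importer of the wider list, Irs3 (0.92) and Slc66a1 (0.88). For Fech they were Morc3 (r = 0.90), Ilf2 (0.89) and Mgat3 (0.87). For Hmox1 they were Alkbh7 (r = 0.94), Dmkn (0.92) and Pmpca (0.92), for Hmox2 Chrm4 (0.97), Thoc5 (0.94) and Acsf3 (0.94), and for Alad Sgca (0.94), Supt4h1 (0.94) and Gamt (0.94).

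Ketogenic replicate 3 was the highest ketogenic array for Cp 1368418_a_at (5.81), Hmox1 (6.37), Hmox2 (7.61) and Alad (7.37) and the lowest for Tfrc 1371113_a_at (7.52).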
